A study of Mus musculus with 12 samples.

Results

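Grik1, Josd1, Plk2, Enah, Tuba1a and Gnao1 were the 6 genes whose 5′ UTR had no eIF4G2 CLIP tag in any resting library and at least 10 tags over the depolarized libraries. They were chosen by these tag counts, out of 3366 listed 5′ UTRs of named genes (0.178%), so the contrast between conditions that follows is a description of the selection and was not tested. CLIP crosslinks protein to RNA in living cells with ultraviolet light, immunoprecipitates the protein and sequences the attached RNA fragments, each of which is a tag. Mouse primary cortical neurons, cultured from embryonic CD-1 cortex, were harvested at rest (labels give 6 replicates) or after depolarization, in which activity was first silenced with tetrodotoxin and DL-AP5 for 2 h, 55 mM KCl was then present for 1 h, and the cells recovered for 30 min. Both conditions received cycloheximide for 2 min before harvest, so elongating ribosomes were arrested in all samples. The cultures were not sorted, though the study describes them as free of non-neuronal cells, and no RNA abundance was measured in these libraries, so more of an mRNA, more cells that express it and more eIF4G2 on each copy cannot be told apart.

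eIF4G2 (also DAP5) is a relative of the scaffold eIF4G that lacks the part binding the cap-binding protein eIF4E, and it supports translation initiation on mRNAs with structured leaders or upstream open reading frames. The 6 genes act at different places in a neuron. Grik1 encodes GluK1, a pore-forming subunit of kainate-type glutamate receptors. Gnao1 encodes Gαo, the abundant neuronal G protein α subunit that couples many receptors to ion channels. Plk2 is a polo-like kinase that is transcribed in response to activity and phosphorylates postsynaptic proteins during homeostatic weakening of synapses. Josd1 is a deubiquitinase of the Machado-Joseph disease family, which removes ubiquitin from substrates. Enah (Mena) is an Ena/VASP protein that promotes growth of actin filaments at their tips, and Tuba1a is the α-tubulin of growing neurons.

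The libraries were shallow. Totals ran from 306 to 3224 tags in the 6 resting libraries (6471 in all) and from 264 to 5240 in the 5 depolarized libraries (9296 in all). Depolarized replicate 5 is absent from this comparison because its deposited values repeat resting replicate 5 exactly, and they were counted once, as resting. Replicate 1 held 49.8% of the resting and 56.4% of the depolarized tags. Astrocyte, oligodendrocyte lineage and endothelial markers were not among the listed 5′ UTRs (0 of 6, 0 of 7 and 0 of 4), and the only listed microglial marker, Aif1, had 1 tag. Of 10 general neuronal markers 5 were listed, with 46 resting and 122 depolarized tags, most of them on the synaptic vesicle calcium sensor Syt1 (40 and 103), so few genes marked the labelled cell type. Listed glutamatergic markers had 1 and 8 tags and GABAergic markers 3 and 2. Summed neuronal markers made up 0.155% to 4.25% of the tags of a resting library and 0.546% to 1.88% of a depolarized library. Their part in the results below was not tested.

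The annotated leaders of the 6 genes differed in length, base composition and motif content. Sequences were read from GENCODE M21 (GRCm38), in each gene's protein-coding transcript with the longest 5′ UTR, and all 6 5′ UTRs lay in exon 1. The deposited transcript identifiers (uc007zur.2 for Grik1, uc007wue.2 for Josd1, uc007rvs.3 for Plk2, uc007dxq.3 for Enah, uc007xok.1 for Tuba1a and uc009mvk.2 for Gnao1) are not paired with GENCODE here, so the leaders the authors counted on may differ. Annotated 5′ UTRs range from 29 to 556 nt for Grik1, from 42 to 446 nt for Enah and from 23 to 498 nt for Gnao1. For Grik1, unlike Enah and Gnao1, the longest transcript is also the one with the longest 5′ UTR. The positions are chr16:88289703-88290258 (minus strand, 556 nt) for Grik1, chr15:79686918-79687919 (minus, 1002 nt) for Josd1, chr13:110395046-110395176 (plus, 131 nt) for Plk2, chr1:182019535-182019980 (minus, 446 nt) for Enah, chr15:98953454-98953703 (minus, 250 nt) for Tuba1a and chr8:93810838-93811335 (plus, 498 nt) for Gnao1.

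The study names CGCGGC as a predicted eIF4G2 motif and reports it as the most crosslinked one in its eIF4G2 CLIP. Places where the leaders hold this motif are therefore shown first. It was searched on the transcript strand. It occurred 3 times in Josd1, 3 times in Enah and once each in Tuba1a and Gnao1, and no match was found in the 131 nt of Plk2 or the 556 nt of Grik1. The hexamer is in capitals, with up to 12 bases on each side, written 5′ to 3′ on the transcript:
Josd1, first, chr15:79687580-79687609 (minus strand): gcgggacctcccCGCGGCggcgcccgggct
Josd1, second, chr15:79687548-79687577 (minus strand): cgttcccctttcCGCGGCtcctcccgcgcc
Josd1, the third, chr15:79687453-79687482 (minus strand): ccggagcccccgCGCGGCccgcgacctcac
Enah, first, chr1:182019943-182019972 (minus strand): cggctctcctccCGCGGCtgcagcagctgc
Enah, the third, chr1:182019599-182019628 (minus strand): ctcgcgcgtcccCGCGGCgtccgcctcccc
Tuba1a, chr15:98953641-98953670 (minus strand): ccactctcctgtCGCGGCttctctgggcag
Gnao1, chr8:93810901-93810930 (plus strand): gcctccggcagcCGCGGCagaaggacccac

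The reverse complement GCCGCG occurred once in Tuba1a and once in Gnao1, where it overlaps the hexamer shown. Across the 3313 listed 5′ UTRs with a sequence, 35.9% held at least 1 CGCGGC and 13.8% at least 2. Among the 189 of them with 10 or more depolarized tags, the shares were 54.0% and 26.5%. These 189 leaders were also longer (median 497 nt, against 356 nt over all listed), and the part of length was not tested. Of the 6 genes, 4 held the hexamer and 2 held more than 1 copy. With the longest transcript in place of the longest 5′ UTR, 3 of the 6 held it, since the 23-nt leader of that Gnao1 transcript had none, and of these only Josd1 held more than 1 copy. These letters mark a match only, and the deposited counts do not place tags within a leader.

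Upstream ATGs, the starting points of upstream open reading frames, were also uneven. Grik1 had 6 and Josd1 5, Tuba1a had 2, Enah 1, and Plk2 and Gnao1 none, and each of them was followed by an in-frame stop within the leader. At least 1 upstream ATG was present in 73.3% of all listed 5′ UTRs, against 4 of the 6 genes. With the longest transcript these were 66.7% and 3 of the 6, since the 127-nt leader of that Enah transcript had none. The upstream ATG nearest the start codon of each gene that has one is shown in capitals with 10 bases on each side:
Grik1, chr16:88289711-88289733 (minus strand): gtgtttcggcATGaattaagaag
Josd1, chr15:79687024-79687046 (minus strand): agcataaatcATGaacaccagag
Enah, chr1:182019654-182019676 (minus strand): gcgcgcggagATGgtgtagcccg
Tuba1a, chr15:98953584-98953606 (minus strand): gcccatccccATGgtgacagagc

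The Grik1 ATG lies 21 bases before the start codon and, like the Enah ATG 132 bases before it, opens a reading frame of 2 codons before its stop. The Josd1 ATG lies 119 bases and the Tuba1a ATG 143 bases before the start codon, with frames of 5 and 23 codons. The longest such frame in the 6 leaders, of 54 codons, began at the other ATG of Tuba1a.

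By the longest annotated 5′ UTR, Josd1 had the longest leader, longer than 94.5% of the listed 5′ UTRs, and Plk2 the shortest, longer than 9.54%. With the longest transcript, Gnao1 (23 nt) and Enah (127 nt) had shorter leaders than Plk2. Enah had the highest share of G and C (82.3%, above 97.5% of listed 5′ UTRs), and Grik1 the lowest (56.7%, above 23.3%). The median over all listed 5′ UTRs was 356 nt and 64.4% G and C. The 6 genes therefore spanned most of the range of both measures, and no length or composition class held them all.

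**Figure D1:**
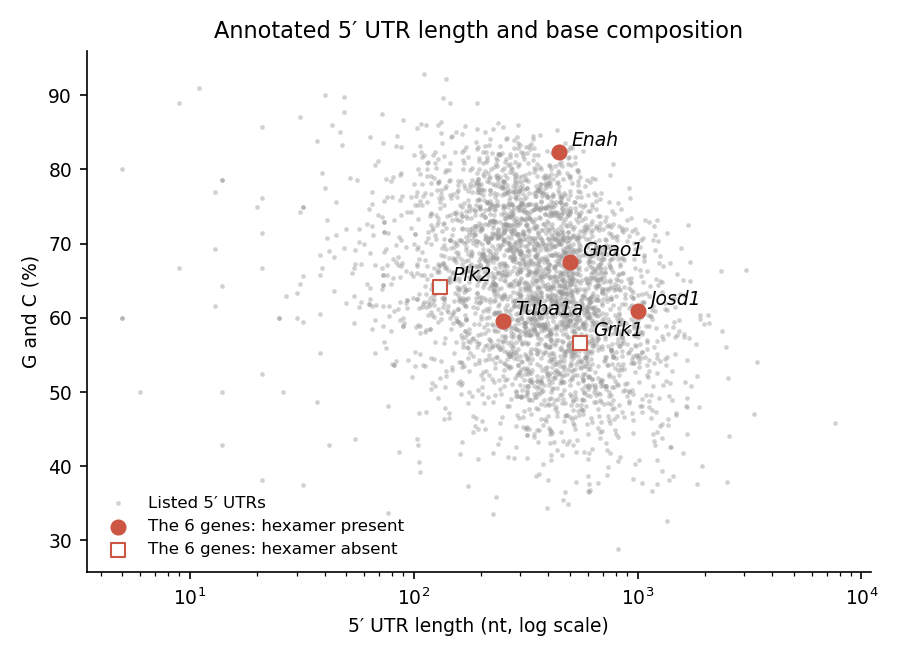
Length in nucleotides (log scale) and share of G and C of the longest annotated 5′ UTR of each listed gene (grey points) and of the 6 genes (red; filled circles hold a CGCGGC, open squares do not). Plk2 (131 nt) and Josd1 (1002 nt) lie near opposite ends of the length range, and Enah (82.3% G and C) near the top of the composition range.

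Grik1 had 1 tag in depolarized replicate 1, 4 in replicate 2, 4 in replicate 3, 0 in replicate 4 and 1 in replicate 6. It was thus tagged in 4 of 5 depolarized libraries, and 9 of its 10 tags came from outside the deepest one. Josd1 had 3, 4, 1, 1 and 1 tags in the same order and was the only one of the 6 seen in all 5 depolarized libraries. Plk2 had 3, 6, 1, 0 and 0 tags, with 60.0% of its 10 tags in replicate 2. Enah had 3, 0, 8, 0 and 0 tags, with 72.7% of its 11 tags in replicate 3. Tuba1a had 10, 1, 1, 0 and 0 tags, so that 83.3% of its 12 tags came from replicate 1. Gnao1 had 10, 1, 0, 0 and 0 tags, with 90.9% of its 11 in replicate 1 and a lone tag elsewhere.

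**Figure D2:**
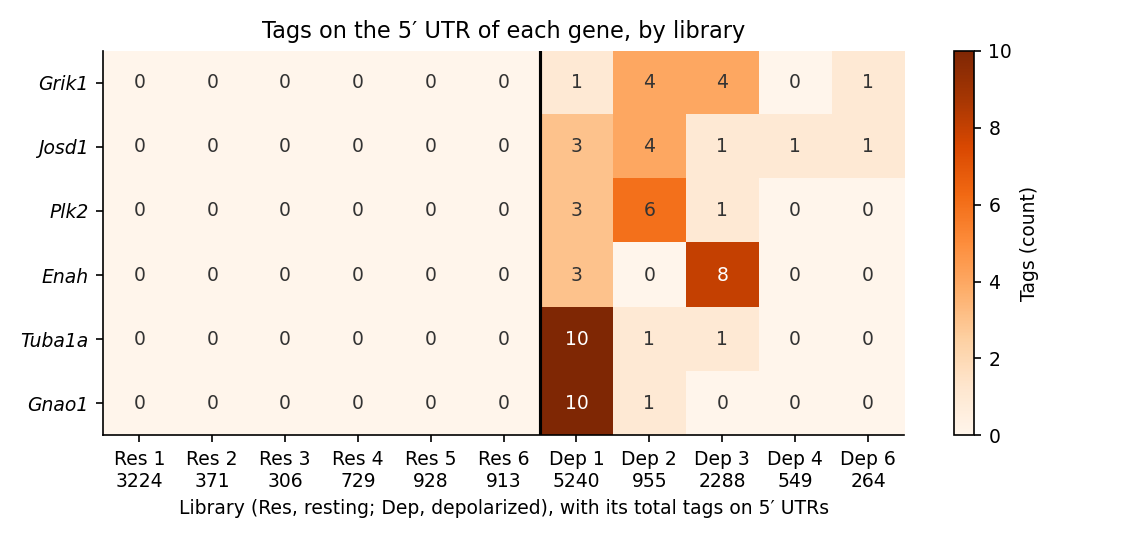
Tags on the 5′ UTR of each of the 6 genes (rows) in each resting (Res) and depolarized (Dep) library (columns, with the library's total tags); colour and number give the count. All resting cells are 0 by the choice of the genes, and the highest counts are the 10 tags of Tuba1a and of Gnao1 in depolarized replicate 1.

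Tags of other 5′ UTRs were concentrated to a similar extent. Of the 56 other 5′ UTRs with 10 to 12 depolarized tags, 2 had tags in 1 depolarized library, 22 in 2, 20 in 3, 9 in 4 and 3 in all 5. Among the 6 genes, 2 had tags in 2 libraries, 2 in 3, 1 in 4 and 1 in 5. The library with the most tags held a median of 63.6% of a 5′ UTR's depolarized tags in the first group and 66.4% among the 6 genes. Only Grik1 and Josd1 had a tag in depolarized replicate 6, the shallowest library with 264 tags, and only Josd1 in replicate 4 (549 tags).

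Scaled to the total of each library, the order of the genes changed. As counts scaled to the library total (CPM) and averaged over the 5 depolarized libraries, Josd1 had 2161 ± 1758 (SD), Grik1 1983 ± 1957, Plk2 1458 ± 2709, Enah 814 ± 1520, Tuba1a 679 ± 810 and Gnao1 591 ± 865. With TMM library sizes the order was the same, and Enah had 1367 CPM. No neighbours in this order differed by more than their spread, and 1 tag was worth between 191 CPM in replicate 1 and 3788 CPM in replicate 6. Pooled over libraries, the order differed, with Tuba1a at 1291 CPM (Wilson 95% interval 739 to 2255), Enah and Gnao1 at 1183 (661 to 2118) and Grik1, Josd1 and Plk2 each at 1076 (584 to 1979). These intervals overlap throughout and cover counting error only. Without replicate 2 the mean of Plk2 was 252 CPM, and without replicate 3 that of Enah was 143 CPM. Leaving out replicate 1 gave 371 CPM for Tuba1a and 262 CPM for Gnao1. Per kilobase of annotated leader, the depolarized tags were 76.3 for Plk2, 48.0 for Tuba1a, 24.7 for Enah, 22.1 for Gnao1, 18.0 for Grik1 and 9.98 for Josd1, an order set mostly by length. With the longest transcript the values were 478 for Gnao1 and 86.6 for Enah, which then came before Plk2.

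A count of 0 at rest has a limit set by depth. Over the 6 resting libraries it allows up to 3 tags, or 0.0464% of the tags. At the share of tags they had after depolarization, Grik1, Josd1 and Plk2 would each have had 6.96 tags in the resting libraries, Enah and Gnao1 7.66, and Tuba1a 8.35. Of the 6.96, 3.47 would have fallen in resting replicate 1, the deepest resting library. With replicate 1 left out of both conditions, the same calculation gave 7.20 resting tags for Grik1, 5.60 for Josd1 and Plk2, and 6.40 for Enah, 1.60 for Tuba1a and 0.801 for Gnao1. The 0 resting tags were fixed by the choice of the genes, so these numbers give the scale of the depth and test nothing.

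Together the 6 genes held 30 of 5240 tags in depolarized replicate 1 (0.573%), 16 of 955 in replicate 2 (1.68%), 15 of 2288 in replicate 3 (0.656%), 1 of 549 in replicate 4 (0.182%) and 2 of 264 in replicate 6 (0.758%). Replicate 2 was the highest and replicate 4 the lowest, and the mean share was 0.769% ± 0.552 (SD, n = 5). All 6 genes were seen in replicate 1, 5 of them in replicates 2 and 3, 1 in replicate 4 and 2 in replicate 6. By replicate number, replicates 1 to 3 held 61 of the 64 tags (0.719% of 8483, interval 0.560% to 0.923%), against 0 of 3901 resting tags. Depolarized replicates 4 and 6 held the other 3 (0.369% of 813, interval 0.126% to 1.08%), against 0 of 2570 tags in resting replicates 4 to 6. In the second set the depolarized share is itself at the level of 3 counts. The tags of Grik1 in replicate 6 and of Josd1 in replicates 4 and 6 were needed for these genes to reach 10.

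**Figure D3:**
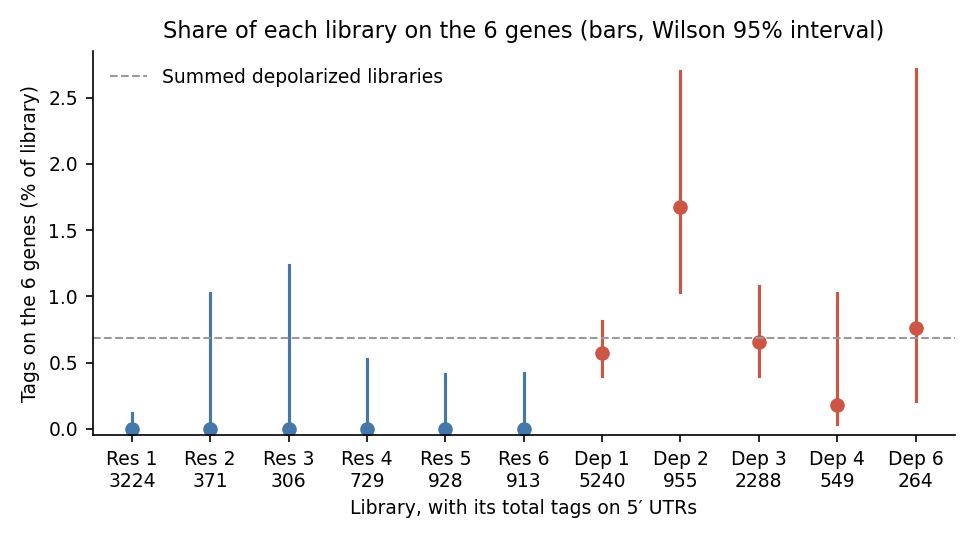
Percent of each library's 5′ UTR tags that lie on the 6 genes, with Wilson 95% intervals (bars), for 6 resting (blue) and 5 depolarized (red) libraries; the dashed line is the summed depolarized share. Depolarized replicate 2 stands highest at 1.68%, and the intervals of the shallowest libraries of both conditions are wide, up to 1.24% in resting replicate 3 with its 0 tags and 2.72% in depolarized replicate 6.

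How sharply the threshold separates the 6 genes can be seen from their neighbours. Of 193 5′ UTRs with 10 or more depolarized tags, 6 had 0 resting tags (3.11%), 12 had 1, 17 had 2, 88 had 3 to 9 and 70 had 10 or more. No 5′ UTR met the mirror rule of 0 depolarized and at least 10 resting tags, and the nearest were Hps4, Tlnrd1, Mgat2 and Dscam with 8 resting tags each. Just below the tag threshold lay 9 5′ UTRs with 0 resting tags. Trim44, Ptp4a2, Slc2a3, Herpud2, Ppp2r5e and Dyrk1a had 9 depolarized tags each, and Fam171a2, Nr4a1 and Hnrnpul2 had 8. Slc2a3 encodes the neuronal glucose transporter GLUT3, Dyrk1a a dosage-sensitive kinase and Nr4a1 an activity-induced nuclear receptor. Of these 9, Fam171a2 was the only one with a tag in all 5 depolarized libraries. Just outside on the resting side, 12 5′ UTRs had 1 resting tag. Pde7a, a cyclic AMP phosphodiesterase, had 40 depolarized tags, all of them in replicate 2. Dip2c had 16, Tmem115 and Tle5 14, Caln1 13, Polr2a and Pfn1 12, Smap2, Peg10 and Dusp6 11, and Hdgfl3 and Rab21 10. The counts of the 6 genes thus adjoin those of the 5′ UTRs on either side of the thresholds, with no gap.

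**Figure D4:**
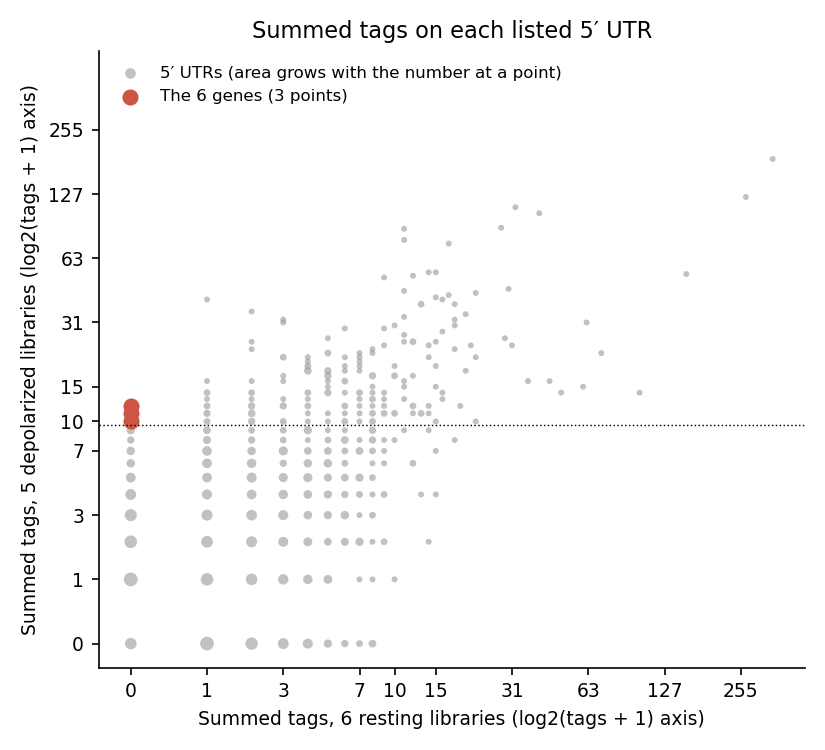
Summed tags of each listed 5′ UTR over 6 resting (horizontal) and 5 depolarized libraries (vertical), both on log2(tags + 1) axes; grey points grow with the number of 5′ UTRs, and the dotted line marks 10 depolarized tags. The 6 genes (red) form 3 points at 10, 11 and 12 depolarized tags, directly above 5′ UTRs with 8 or 9 and beside 12 with 1 resting tag.

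Over the whole table, edgeR's quasi-likelihood test with Benjamini-Hochberg adjustment called 0 of 317 5′ UTRs higher and 0 lower after depolarization (0% each), with 24 higher and 1 lower at an unadjusted p under 0.05. DESeq2 called 0 in either direction, with 2 and 2 at an unadjusted p under 0.05. A binomial test on summed tags, built here after the study's short description of a binomial test on depth-normalized tags, treats all tags of a condition as one sample. It found a gain in 171 of 3280 (5.21%) and a loss in 148 (4.51%) at p under 0.2. With TMM library sizes these were 233 and 90, and the median log2 fold change over all 5′ UTRs moved from 0.33 to 0.54. These shares are the background for the related genes below, which were tested without the 6 genes, in lists written with earlier results of these data known. The background itself still includes the 6 genes, which are among the 317 tested by edgeR and the 171 with a gain.

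Other ionotropic glutamate receptor genes were sparsely tagged. Of 31 subunits and auxiliary proteins, 11 were listed, and the 10 besides Grik1 had 12 resting and 40 depolarized tags. Of these, 2 had more tags by the pooled test and 0 fewer, with a median log2 fold change of 2.29 beside 0.33 over all 5′ UTRs. Tags were depolarized only on 4 of the 10 and resting only on 0, beside 36.3% and 27.9% of all tagged 5′ UTRs. Only 2 of the 10 reached 10 tags, and fold changes from 0 resting tags rest on the pseudocount. Grik5, which encodes the kainate subunit GluK5 that assembles with GluK1, had 1 resting tag, and 6 of its 7 depolarized tags were in replicate 1. Neto1, an auxiliary subunit of kainate and NMDA receptors, had 1 resting tag in replicate 1 and then 1, 3, 3, 0 and 1 depolarized tags, next to 1, 4, 4, 0 and 1 for Grik1; it was picked out after its values were seen. Of the NMDA receptor subunits, Grin1 had 0 resting and 3 depolarized tags, Grin3a 0 and 2, and Grin2b 4 and 6. For Grin2b the log2 fold change was 0.45 ± 1.18 (SE, adjusted p = 0.949, edgeR), and for Cnih3, an AMPA receptor chaperone with 3 and 7 tags, 1.01 ± 1.20 (adjusted p = 0.881, edgeR). The list without Grik1 took 0% to 0.274% of the tags of each resting library and 0.364% to 0.758% of each depolarized library. These ranges do not overlap, but with TMM library sizes they do (0% to 0.428% and 0.392% to 0.699%).

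For Gnao1, the related genes were those of G protein signalling. Of 51 G protein subunits and regulators 17 were listed, and the 16 besides Gnao1 had 49 resting and 91 depolarized tags. Depolarized tags only were found on 1 of the 16 and resting tags only on 3, beside 36.3% and 27.9% of all tagged 5′ UTRs. The pooled test called 2 with more tags and 0 with fewer (4 and 0 with TMM library sizes), and the median log2 fold change was 0.08. Gnas, the stimulatory α subunit, had 12 and 25 tags, with a log2 fold change of 0.49 ± 0.95 (SE, adjusted p = 0.908, edgeR). Gnb1, a β subunit found with many α subunits, had 10 and 11 tags and a value of −0.72 ± 1.06 (adjusted p = 0.908, edgeR). Of the other inhibitory-class α subunits, Gnai1 had 2 resting and 2 depolarized tags and Gnaz 4 and 12. Gnaq, the α subunit that activates phospholipase C, had 2 and 9 tags, and Gng4, a γ subunit, 2 and 8, and both passed the pooled test. Gna11 had 1 resting tag and no depolarized tag. Thus 0 of these relatives with at least 10 tags passed edgeR's test, and Gnas and Gnb1 show resting tags on α and β subunits.

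Plk2 belongs to the activity-induced genes, the list in which the largest number of relatives passed the pooled test. Of 45 genes 25 were listed, and the 24 besides Plk2 had 57 resting and 239 depolarized tags. By the pooled test 10 had more tags and 2 fewer (10 and 0 with TMM library sizes), with a median log2 fold change of 2.06. The AP-1 subunit gene Jun had 12 and 52 tags, with a log2 fold change of 2.05 ± 1.04 (SE, adjusted p = 0.596, edgeR). Junb had 3 and 32 (2.57 ± 1.08, adjusted p = 0.418, edgeR), the lowest adjusted p among the 29 related or marker genes tested. The MAP kinase phosphatase Dusp6 had 1 and 11 tags, the postsynaptic scaffold Homer1 3 and 21, the neuropeptide precursor Vgf 4 and 18, and the AP-1 gene Fosl2 3 and 16. Npas4, an activity-dependent transcription factor, had 6 and 21 tags and Dusp1 5 and 22, with all their resting tags in replicate 1. Bdnf, the neurotrophin, had 5 and 5 tags, and Nr4a3 3 and 9. None of these passed edgeR's test with all libraries, while Jun, Dusp1 and Npas4 passed it when replicate 1 was left out. Resting replicate 1 also held 11 of the 12 resting tags of Jun, and that fit tested 108 5′ UTRs without a block. With the replicate block 0 of the 29 passed. The list took 0.137% to 1.63% of the tags of each resting library and 1.14% to 3.06% of each depolarized library, so the ranges overlapped. Of the 24, 9 had depolarized tags only, among them Nr4a1 with 8, and 2 resting tags only, beside 36.3% and 27.9% of all tagged 5′ UTRs. Other polo-like kinases were not listed, and of the postsynaptic substrates Rasgrf1 had 1 and 3 tags and Sipa1l1 2 and 0, neither of which passed the pooled test.

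Other deubiquitinases had few tags in either condition. Of 76 genes 28 were listed, and the 27 besides Josd1 had 23 resting and 28 depolarized tags, 0.355% and 0.301% of the tags of each condition. Depolarized tags only were found on 12 of the 27 and resting tags only on 8, beside 36.3% and 27.9% of all tagged 5′ UTRs. By the pooled test 0 had more tags and 1 fewer, Tnfaip3, an NF-κB regulator with 4 resting tags and no depolarized tag. Josd2, the close relative of Josd1, had 1 tag, in depolarized replicate 4. Usp36 had 1 resting and 5 depolarized tags. No deubiquitinase other than Josd1 reached 10 tags.

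Among cytoskeletal genes, those related to Enah were taken first. Of 50 actin assembly genes 29 were listed, and the 28 besides Enah had 36 resting and 73 depolarized tags. Depolarized tags only were found on 8 and resting tags only on 7, beside 36.3% and 27.9% of all tagged 5′ UTRs. By the pooled test 3 gained and 1 lost tags, at a median log2 fold change of 0.45. The 2 other Ena/VASP genes also lacked resting tags. Evl had 5 depolarized tags and Vasp 2, all of them in replicate 2, where Enah itself had none. Pfn1, the profilin that feeds actin to Ena/VASP proteins, had 1 resting and 12 depolarized tags, 9 of them in replicate 3, the library that also held 8 of the 11 Enah tags. Its log2 fold change was 2.69 ± 1.25 (SE, adjusted p = 0.561, edgeR). Actr3, a subunit of the branching Arp2/3 complex, had 6 and 18 tags (0.90 ± 1.04, adjusted p = 0.871, edgeR), and Nckap1, of the WAVE complex, 5 and 5.

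Of 41 tubulins and microtubule-associated proteins 21 were listed, and the 20 besides Tuba1a had 86 resting and 224 depolarized tags. Depolarized tags only were found on 6 of the 20 and resting tags only on 4, beside 36.3% and 27.9% of all tagged 5′ UTRs. The pooled test called 3 with more tags and 1 with fewer (5 and 1 with TMM library sizes), with a median log2 fold change of 0.78. Tuba4a, the only other α-tubulin listed, had 1 depolarized tag. The β-tubulin Tubb5 had 15 resting and 7 depolarized tags, with a log2 fold change of −0.89 ± 1.04 (SE, adjusted p = 0.871, edgeR), and Tubb2b had 4 and 9. Tubb2a had 1 resting tag and Tubb4a 1 depolarized tag. Among the binding proteins, the collapsin response mediator Dpysl2 had 11 and 77 tags (1.98 ± 1.09, adjusted p = 0.630, edgeR), 57 of them in depolarized replicate 1, Map1b had 15 and 41, Map6 18 and 32, Map2 2 and 13, Dclk1 5 and 14, and Stmn4 7 and 13.

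**Figure D5:**
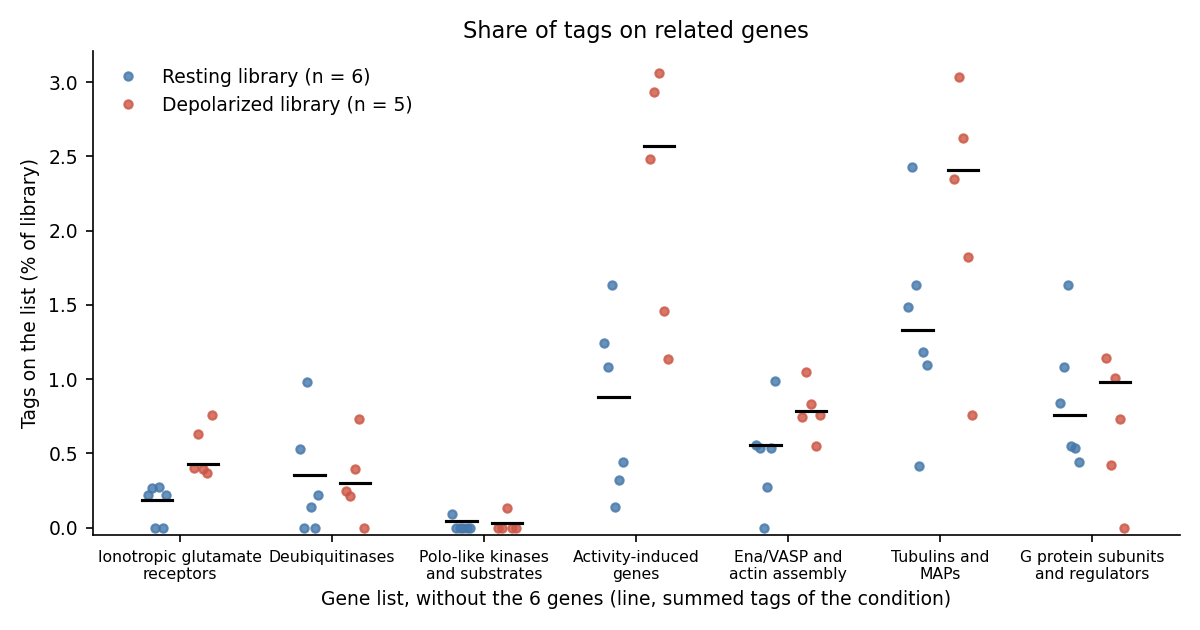
Percent of each library's 5′ UTR tags on each list of related genes, without the 6 genes, for 6 resting (blue) and 5 depolarized (red) libraries; black lines give the share over the summed tags of a condition. The summed share of activity-induced genes is 0.881% at rest and 2.57% after depolarization, and that of deubiquitinases 0.355% and 0.301%.

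Among 311 other 5′ UTRs with at least 10 tags, the profile over the 11 libraries most like that of each gene was found by Spearman correlation of CPM. It was Slc35f1 for Plk2 (rho = 0.91), Dpp8 for Grik1 (0.91), Junb for Tuba1a (0.90), Caln1 for Enah (0.86), Rab21 for Gnao1 (0.86) and Taok2 for Josd1 (0.76). These values are descriptive, since the libraries shared 0s and differed in depth. Dpp8, a dipeptidyl peptidase, had 1 resting tag and 2, 1, 5, 0 and 1 depolarized tags, and Rab21, an endosomal GTPase, 9 of its 10 depolarized tags in replicate 1. Taok2, a kinase, was seen in all 5 depolarized libraries, as Josd1 was, and had 4 resting tags. Between pairs of the 6 genes, rho was highest for Plk2 and Tuba1a (0.99) and lowest for Josd1 and Enah (0.24). The resting 0s of all 6 were fixed by their choice and enter each of these values. Plk2 and Tuba1a were both seen in replicates 1 to 3 only. Plk2 was highest in replicate 2 (6283 CPM) and Tuba1a in replicate 1 (1908 CPM), so their high rho does not mean like counts.

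Overlapping annotation and repeated sequence touch the 6 leaders unevenly. The Tuba1a leader overlaps an exon of Gm49450 on the same strand, and 79 of its 231 words of 20 bases (34.2%) also occur in that gene's transcripts, so its tags cannot be assigned to Tuba1a alone. The Gnao1 leader lies in an intron of 4930488L21Rik on the opposite strand, and how strand was handled in counting is not given in the sources used here. In transcripts of other genes, 28 of 427 words were found for Enah (6.56%), 15 of 479 for Gnao1 (3.13%), 5 of 983 for Josd1 and 1 of 537 for Grik1. Plk2 shared 0 of 112.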

How the data were processed

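eIF4G2 CLIP tags on 5′ UTRs were taken from 12 files, 1 per labelled sample. The values deposited by the authors are raw counts per library, not normalized: reads were trimmed (cutadapt, per the labels), exact duplicates collapsed with CLIP Tool Kit, aligned to mm10 with Rsubread and counted on 5′ UTRs, taking for every gene its longest transcript. The handling of multiply mapped reads is not given in the sources used here. A nameless entry (0 tags, 0%) was dropped, and depolarized replicate 5, identical to resting replicate 5, was not used. The labels give 6 replicates; the study's texts give other numbers.

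The members and gene lists were chosen with earlier results of these data known. Named are all members, listed relatives with 10 or more tags and paralogs, 5′ UTRs just outside the rule, and the most similar profile of each member.

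edgeR 4.0.16 in R 4.3.3 (TMM, at least 10 tags, library sizes over all 5′ UTRs, no block) and DESeq2 1.42.0 (poscounts) were fitted to the whole table. edgeR was also run on simulated counts, but recovery was required only at a greater depth and a lower dispersion than in these data. That check therefore does not bear on the 0 calls here. The pooled test follows the study in using a binomial test, P below 0.2 and the pseudocount; summing tags per condition, scaling them to the mean total and a two-sided exact test were chosen here (fold changes with a pseudocount of 0.1). Resting and depolarized samples of a replicate were pooled after reverse transcription per the labels. Their deviations from the group means correlated (0.154 to 0.314 over 5 pairs), so the numbers may pair the libraries. Libraries of unlike number were not set beside them. The log2 fold changes given for single genes are from the fit without a block. With the replicate block they differed, such as 3.52 against 2.69 for Pfn1 and 1.44 against 2.12 for Dusp1 (both adjusted p = 0.997, edgeR). Shares carry Wilson 95% intervals; a count of 0 allows 3 counts. Molecular identifiers are not stated, so both cover only counting error. Python 3.11.15, scipy 1.17.1 and matplotlib 3.10.9 were used. GENCODE M21 sequence was matched by gene name for 3313 of 3366 5′ UTRs and all 6 members. The sequence around 1 hexamer of Enah is not reported here.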

Additional observations from a re-analysis of the deposited data

Results flagged for a closer look

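In 9 groups of 5 or 6 libraries, the gap between the extreme library and its nearest neighbour was compared with Dixon's 95% critical value. Chance exceeds that value in about 1 of 20 groups, and 3 values passed. Resting replicate 1 held 3224 tags, while the other 5 resting libraries held 306 to 928. Plk2 reached 6283 CPM (6 tags) in depolarized replicate 2 and 0 to 573 CPM in the other 4. Enah reached 3497 CPM (8 tags) in depolarized replicate 3 and 0 to 573 CPM in the other 4. Plk2 and Enah were selected on the sum of these same depolarized tags, and 1 tag weighs more in a shallow library, so their values are a description and not a test. The part of depth in these values was not tested.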

How the results depend on the processing

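The count of 6 genes is set by the thresholds. It was 49 with at least 5 depolarized tags (15 under the mirror rule), 0 with at least 15, and 18 with at most 1 resting tag (1 under the mirror rule, Ptprn). Leaving out a replicate in both conditions gave 2 to 10. Without replicate 1, 6 5′ UTRs met the rule and 0 of them were among the original 6. Without replicate 2, Enah, Gnao1 and Tuba1a remained, without replicate 3 Gnao1 and Tuba1a, without replicate 4 all but Josd1, and without replicate 6 all but Grik1 and Josd1. With all 12 files as labelled it stayed at 6. edgeR called 0 to 7 5′ UTRs higher when a replicate was left out (7 without replicate 1, none of them among the 6 genes, and Pde7a without replicate 6) and 1, Pde7a, without TMM. The paired fit with the replicate block called 0 higher and 0 lower, with 1 and 0 at an unadjusted p under 0.05, and was run for this fit alone. The pooled test called 107 with more and 39 with fewer tags when 10 tags were required, 14 and 10 after Benjamini-Hochberg adjustment, and 233 and 90 with TMM library sizes. Leaving out a replicate gave 98 to 168 and 43 to 151, both lowest without replicate 1, and 93 with fewer tags without replicate 3. The mean share on the 6 genes stayed within its SD, from 0.542% without replicate 2 to 0.915% without replicate 4; it was 0.968% in replicates 1 to 3 and 0.470% in replicates 4 and 6, both added after seeing the data. The causes were not tested. At 10 to 12 tags per gene, depth limits every statement about a lone gene.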

Other observations

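With replicate 1 left out of both conditions, the 5′ UTRs with 0 resting and at least 10 depolarized tags were those of Deaf1, Dusp1, Gpat4, Npas4, Ppp2ca and Rhob, named here after their values were seen. Npas4 and Dusp1 are activity-induced genes, and Ppp2ca encodes the catalytic subunit of protein phosphatase 2A. The 6 resting tags of Npas4 and the 5 of Dusp1 were all in resting replicate 1, so in the other 5 resting libraries these leaders, like those of the 6 genes, had 0 tags.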
